A study of Mus musculus with 32 samples.

Results

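The 31 genes described here encode enzymes of the lysosome, proteins of its membrane and its main transcriptional regulator. They were taken by name as a list of 7 proteases, 9 glycosidases, 2 sulfatases, 6 genes of lipid breakdown and cholesterol export, 6 genes of the membrane and of acidification, and Tfeb. All 31 were found in each of 4 raw count tables, which list 55291 genes in sorted astrocytes, 55291 in sorted oligodendrocytes, 53700 in sorted microglia and 17572 in cultured astrocytes. A filter on low counts kept all 31 for testing in every table except that of microglia, where 30 passed and Ctsk did not.

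Each of the 32 RNA sequencing libraries came from mice with the TDP-43_Q331K transgene, which encodes a mutant form of an RNA-binding protein linked to amyotrophic lateral sclerosis. Astrocytes (ACSA+) were sorted from cortices and spinal cords at 3 months (4 libraries), 6 months (5 libraries) and 10 months (2 libraries). Oligodendrocyte lineage cells (O4+) were sorted from the same tissues at 6 months (4 libraries) and 3 months (4 libraries), and microglia (Cd11b+) from cortices alone at 10 months (4 libraries) and 3 months (3 libraries). Primary astrocytes of the same genotype, replated after 14 days in culture, received 40 µM Omomyc, a MYC-derived miniprotein that inhibits MYC, for 48 h (3 libraries) or vehicle (3 libraries). Every group carries the transgene and animals lacking it were not analysed here, so effects of age and of the transgene cannot be told apart. The labels do not say that replicates came from separate animals or cultures, so p-values measure the spread between these samples, which may be technical. All are bulk samples, in which fewer cells of a type and less RNA per cell cannot be told apart.

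Lysosomes break down proteins, glycans and lipids delivered by endocytosis and autophagy, using hydrolases that work at the acid pH set by the V-ATPase. Loss of many of these hydrolases or membrane proteins causes a lysosomal storage disease, often with neurodegeneration and gliosis. TFEB and its relatives move into the nucleus when the kinase complex mTORC1 is less active and switch on many lysosomal genes together, through sites with the core CACGTG, a sequence that MYC with its partner MAX can also bind.

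This core was looked for in the promoters because the culture experiment inhibits MYC and because Tfeb is itself on the list. RefSeq promoters on GRCm38.p6, from 250 bases before to 50 bases after a gene's start, were given for 29 of the 31 genes. CACGTG, which reads the same on both strands, was present in 9 of these 29 genes and in 2187 of 27025 genes with a promoter (8.09%). A match is a description of the letters in the window and not a measured binding site. The promoters shown whole are those of Lamp1 and Npc2, which were both higher in older microglia, and of Ctsc, which changed with age in opposite directions in astrocytes and oligodendrocytes. The core stands in capitals: Lamp1 holds 4 copies, which begin at positions -61, -45, -28 and -15 from the start, and Npc2 and Ctsc hold none.
Lamp1, chr8:13158911-13159210, plus strand: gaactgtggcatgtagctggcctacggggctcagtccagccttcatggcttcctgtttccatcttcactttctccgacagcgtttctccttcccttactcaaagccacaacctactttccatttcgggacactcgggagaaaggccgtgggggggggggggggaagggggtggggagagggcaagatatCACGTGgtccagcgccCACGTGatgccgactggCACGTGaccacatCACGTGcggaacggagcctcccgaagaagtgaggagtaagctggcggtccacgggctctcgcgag
Npc2, chr12:84773063-84773362, minus strand: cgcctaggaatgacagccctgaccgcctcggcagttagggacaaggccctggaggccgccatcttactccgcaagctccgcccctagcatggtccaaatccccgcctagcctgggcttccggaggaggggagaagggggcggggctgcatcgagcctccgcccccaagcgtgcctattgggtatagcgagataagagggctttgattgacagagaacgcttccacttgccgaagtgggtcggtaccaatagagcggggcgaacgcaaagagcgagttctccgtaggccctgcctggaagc
Ctsc, chr7:88277835-88278134, plus strand: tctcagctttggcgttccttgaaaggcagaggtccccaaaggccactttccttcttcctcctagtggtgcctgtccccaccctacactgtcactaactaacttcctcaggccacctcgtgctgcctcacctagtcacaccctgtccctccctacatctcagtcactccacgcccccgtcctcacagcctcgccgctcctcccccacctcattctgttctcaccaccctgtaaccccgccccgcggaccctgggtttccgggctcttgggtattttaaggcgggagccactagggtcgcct

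The other 8 genes with the core are shown with 6 bases on each side of it, since the flanks differ between the genes. Cln3, Ctsa, Gla and Mcoln1 hold 2 copies each, and Ctsf, Gaa, Glb1 and Sgsh hold 1.
Cln3, chr7:126583374-126583391, minus strand: ctcaagCACGTGatggaa
Cln3, chr7:126583346-126583363, minus strand: tactgtCACGTGaccccc
Ctsa, chr2:164833755-164833772, plus strand: aactgtCACGTGatgcag
Ctsa, chr2:164833772-164833789, plus strand: gatgctCACGTGaccaga
Ctsf, chr19:4855080-4855097, plus strand: gtggtcCACGTGcctcgc
Gaa, chr11:119267817-119267834, plus strand: tgcgatCACGTGtttgac
Gla, chrX:134601221-134601238, minus strand: attgatCACGTGagcatc
Gla, chrX:134601188-134601205, minus strand: ctcggtCACGTGagcaac
Glb1, chr9:114401024-114401041, plus strand: ctgagtCACGTGgcctac
Mcoln1, chr8:3500442-3500459, plus strand: gcttgtCACGTGttcagt
Mcoln1, chr8:3500468-3500485, plus strand: cccgctCACGTGaccgcg
Sgsh, chr11:119355528-119355545, minus strand: gccgtgCACGTGaccgtg

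Depth was lowest in microglia libraries, with 4145129 to 5612071 counts in total, and highest in culture, with 30117025 to 37470972. Astrocyte libraries held 6151583 to 20763190 counts and oligodendrocyte libraries 9752907 to 18598533. Levels are CPM, a gene's counts scaled to a common library size, after TMM scaling within a table, and changes are log2 fold changes ± SE. Where astrocytes are set against oligodendrocytes, TMM scaling was instead done over the libraries of both cell types together. The same library therefore has a different CPM there than in the comparisons within a cell type. The sorts carried their own markers. Summed astrocyte markers were 23638 to 36161 CPM in sorted astrocytes, and summed microglial markers were 26214 to 45333 CPM in sorted microglia but only 45.4 to 71.9 CPM in sorted astrocytes, with at most 2 of 12 markers at 0. Sorted astrocytes also held 16278 to 37676 CPM of oligodendrocyte markers, against 81636 to 168941 CPM in sorted oligodendrocytes. Replicate 1 of the 6 month oligodendrocytes, replicate 4 of the 3 month astrocytes and replicate 3 of both culture treatments stood apart from the other libraries of their groups, and results that rest on them are given with and without them. Exons of Cln3, Ctsa, Hexa, Idua, Lamp1, Npc1, Ppt1 and Sgsh overlap those of a gene on the opposite strand. Their reads are uncertain, because whether the authors counted by strand is not stated. Exons of Glb1 overlap those of Tmppe on the same strand, so its reads are uncertain whether or not strand was used.

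Psap and Lamp1 were the highest of the 31 genes in astrocytes, oligodendrocytes and culture. In TPM, which allows for gene length, Psap, the precursor of the saposin activators of sphingolipid breakdown, was first in astrocytes of every age, with a mean of 1941 ± 158 TPM at 3 months (SD, n = 4), 2297 ± 179 TPM at 6 months (n = 5) and 2412 ± 66.7 TPM at 10 months (n = 2). TPM values rank genes within a group and were not tested between ages. With the TMM scaling used for the tests, Psap passed at neither later age. No lipid gene then had a log2 change from 3 months above 0.10 at 6 months or 0.08 at 10 months. Lamp1, the most abundant glycoprotein of the lysosomal membrane, came next in astrocytes, with 1328, 1279 and 1278 TPM at 3, 6 and 10 months. In oligodendrocytes Lamp1 had the highest mean, with 1508 ± 255 TPM at 6 months and 2291 ± 62.4 TPM at 3 months (SD, n = 4 each). Psap followed with 1459 ± 747 TPM at 6 months and 1412 ± 78.3 TPM at 3 months. Its mean at 6 months rests on replicate 1, with 2564 TPM of Psap and 1866 TPM of Lamp1, the library in which Psap stood above Lamp1. Ctsc, a dipeptidyl peptidase that activates granule proteases of immune cells, was at the other end in astrocytes with 7.04, 5.32 and 3.14 TPM at 3, 6 and 10 months. Cultured astrocytes kept Psap and Lamp1 at the top, with 3498 TPM and 1826 TPM in Omomyc cultures and 3549 TPM and 1865 TPM in vehicle cultures. Their Ctsc stood at 139 ± 44.7 TPM with Omomyc and 126 ± 43.9 TPM with vehicle (SD, n = 3 each).

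**Figure D1:**
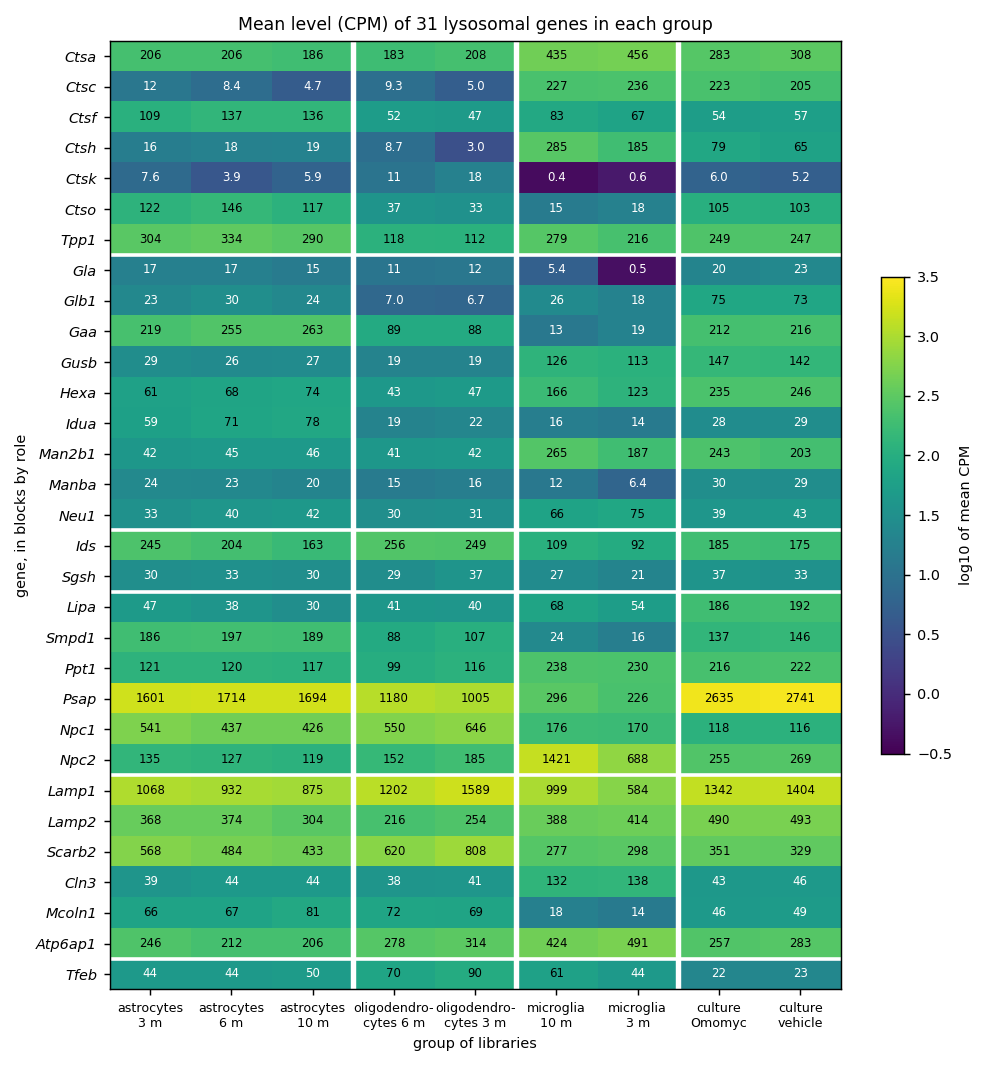
Mean level in CPM of each of the 31 genes (rows, in blocks of proteases, glycosidases, sulfatases, lipid genes, membrane genes and Tfeb) in each of the 9 groups of libraries (columns), with colour on a log10 scale and the mean written in each cell. Columns of the same cell type come from 1 table; levels from different tables were made with different kits or normalized separately and are not tested against each other. Npc2 reaches a mean of 1421 CPM in 10 month microglia, and Ctsc and Ctsh are low in sorted astrocytes and oligodendrocytes.

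Astrocytes had more Glb1, Ctso, Ctsh, Idua, Tpp1 and Gaa RNA than oligodendrocytes, and less Ctsk, Tfeb, Lamp1, Scarb2 and Atp6ap1. Over 3 and 6 months in a joint fit of 17 libraries, 27 of the 31 genes differed, 12 higher and 15 lower in astrocytes (87.1%, against 74.6% of all 16363 genes tested, of which 38.7% were higher and 35.9% lower). The median log2 difference was -0.07 over the 31 genes and 0.03 over all genes. By role, 4 of 7 proteases and 6 of 9 glycosidases were higher in astrocytes, while 5 of 6 membrane genes, 4 of 6 lipid genes and both sulfatases were lower. Membrane genes outside the list did not share this direction, 10 of 21 being higher and 5 lower in astrocytes. Of 29 genes listed as other hydrolases 16 were higher and 7 lower.

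Among proteases Ctso, a little studied cysteine cathepsin, had 116, 109, 114 and 92.1 CPM in 3 month astrocytes and 121, 127, 129, 124 and 154 CPM in 6 month astrocytes, against 40.6, 38.1, 33.7 and 39.8 CPM in 3 month oligodendrocytes and 33.6, 42.9, 43.0 and 43.9 CPM in 6 month oligodendrocytes. No astrocyte library came near an oligodendrocyte library, and the log2 difference was 1.59 ± 0.07 (edgeR's quasi-likelihood test, Benjamini-Hochberg adjusted p = 4.1e-14). Tpp1, the tripeptidyl peptidase lost in a childhood form of neuronal ceroid lipofuscinosis, was higher by 1.14 ± 0.07, Ctsh, an aminopeptidase, by 1.37 ± 0.16 and Ctsf by 0.97 ± 0.11. Ctsk, a collagen-degrading cathepsin best known from bone, went the other way, with a log2 difference of -1.70 ± 0.14 (adjusted p = 5.99e-10). Its levels were 4.88 to 8.82 CPM in 3 month astrocytes and 2.77 to 4.60 CPM in 6 month astrocytes, against 18.6 to 21.9 CPM in 3 month oligodendrocytes and 7.72 to 15.3 CPM in 6 month oligodendrocytes.

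Glycosidases gave some of the widest gaps. Glb1, the lysosomal beta-galactosidase, differed by 1.62 ± 0.13, Idua, which cleaves heparan and dermatan sulfate and is missing in Hurler syndrome, by 1.33 ± 0.08, and Gaa, the acid alpha-glucosidase of glycogen breakdown, by 1.09 ± 0.07, all higher in astrocytes. Differences of Manba (0.31), Gla (0.25) and Hexa (0.19) were smaller and also past the test, and Man2b1 was lower in astrocytes by -0.26 ± 0.08. Gusb (0.18 ± 0.08) and Neu1 (-0.07 ± 0.07) did not pass it. The sulfatases Ids (-0.50 ± 0.09) and Sgsh (-0.40 ± 0.09), both needed for heparan sulfate breakdown, were lower in astrocytes.

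Lamp1 had 812 to 1024 CPM in 3 month astrocytes and 812 to 886 CPM in 6 month astrocytes, against 1743 to 1870.2 CPM in 3 month oligodendrocytes and 1201 to 1542 CPM in 6 month oligodendrocytes. The cell types did not overlap, and the log2 difference was -0.80 ± 0.07 (edgeR, adjusted p = 1.68e-09). Scarb2, the receptor that carries beta-glucocerebrosidase to the lysosome, was lower in astrocytes by -0.76 ± 0.06, Atp6ap1, an accessory subunit of the V-ATPase, by -0.70 ± 0.06, and Mcoln1, a calcium channel of the lysosome, by -0.41 ± 0.06. Npc1 (-0.62 ± 0.06) and Npc2 (-0.68 ± 0.07), which together move cholesterol out of the lysosome, were lower as a pair. Tfeb had 35.4 to 41.3 CPM in 3 month astrocytes and 27.3 to 48.6 CPM in 6 month astrocytes, against 93.2 to 113 CPM in 3 month oligodendrocytes and 71.3 to 88.8 CPM in 6 month oligodendrocytes, a log2 difference of -1.18 ± 0.09 (adjusted p = 1.01e-10).

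Lamp2 was the membrane gene that was higher in astrocytes, by 0.34 ± 0.07. Smpd1, the acid sphingomyelinase, was higher by 0.66 ± 0.07. Psap differed by 0.28 ± 0.13 (adjusted p = 0.0607) and did not pass with all libraries, whereas without replicate 1 of the 6 month oligodendrocytes, which had 2174 CPM against 906 to 1076 CPM in its 3 fellows, Psap was higher in astrocytes by 0.46 and passed. Of the 27 calls, 26 were kept whichever of the 17 libraries was left out; that of Ppt1 (-0.16 ± 0.06), which removes palmitate from proteins, was lost without replicate 2 of the 3 month astrocytes (-0.14) or replicate 1 of the 3 month oligodendrocytes (-0.14). In a fit of the 3 month libraries alone 23 of the 27 genes were still called and 4 were not. With the 6 month libraries alone 22 were and 5 were not. Each difference is a mean over both ages, and the genes whose age effect differed between the cell types are given below. The oligodendrocyte RNA within sorted astrocytes, given above, is not removed by this comparison.

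In astrocytes at 6 months Ctsc, Ctsk, Lipa and Npc1 were lower, and Ctsf and Glb1 higher, than at 3 months. Of the 31 genes 6 passed the test, 2 higher and 4 lower at 6 months (19.4%, against 14.6% of all 16189 genes tested, of which 6.28% were higher and 8.29% lower), so the share was near the background. The median log2 change was 0.02 over the 31 genes and 0.003 over all genes. The largest change was that of Ctsk, a scarce transcript here, with 3.90, 5.13, 3.78, 3.71 and 3.04 CPM at 6 months, against 8.63, 5.43, 6.11 and 10.2 CPM at 3 months. The ages did not overlap and the log2 change was -1.02 ± 0.21 (edgeR, adjusted p = 0.0054), a call kept whichever library was left out. Ctsk was not called at 10 months against 3 months, and its means were 16.7, 9.49 and 15.3 TPM at 3, 6 and 10 months.

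The other changes at 6 months were each lost when some single libraries were left out. Glb1 (0.39 ± 0.12) was higher, a call lost on removal of replicates 1, 3 or 4 of 3 months or 3, 4 or 5 of 6 months (0.29 to 0.45). Ctsf, a cysteine cathepsin whose loss in humans causes an adult ceroid lipofuscinosis, was also higher (0.33 ± 0.11), a call lost on removal of replicates 3 or 4 of 3 months or any of 1 to 4 of 6 months (0.26 to 0.35). Npc1 was lower (-0.31 ± 0.10), a call lost without any of 3 month replicates 1, 3 and 4 and 6 month replicates 1, 2, 3 and 4 (-0.31 to -0.24). The total fell to 1 call without 6 month replicate 4 and to 2 without 3 month replicates 1, 3 or 4 or 6 month replicate 3.

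At 10 months Ctsc, Lipa, Ids and Scarb2 were lower and Idua was higher than at 3 months in astrocytes. Of the 31 genes 5 passed the test against 3 months, 1 higher and 4 lower (16.1%, against 22.7% of all 16189 genes, 11.5% higher and 11.2% lower), a share no higher than the background. The median log2 change was -0.05 over the 31 genes and 0.02 over all genes. DESeq2 called 9 of the 31 and 24.1% of all genes, and 3 were called with the replicate block (18% of all genes) or with the 6 month libraries left out of the fit (24.5%). With 2 libraries against 4, the 10 and 3 month libraries did not overlap for 18 of the 31 genes, most of them not called. Both later ages were set against the same 3 month libraries, so the paired values below are not independent.

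Ctsc had 12.4, 13.2, 12.8 and 10.7 CPM at 3 months, 10.0, 6.89, 9.48, 6.57 and 9.03 CPM at 6 months, and 4.61 and 4.73 CPM at 10 months. No library of a later age reached the level of any younger one. The log2 change from 3 months was -0.54 ± 0.15 at 6 months (edgeR, adjusted p = 0.0253) and -1.38 ± 0.22 at 10 months (adjusted p = 0.000577). Leaving out each library in turn kept the call at 10 months and ended that at 6 months without 3 month replicates 1, 2 or 3 or 6 month replicate 4 (-0.51 to -0.45). Between 10 and 6 months Ctsc changed by -0.84 ± 0.21 (adjusted p = 0.0663), and none of the 31 genes passed in that comparison (0.908% of all 16189 genes did, 0.574% higher and 0.334% lower), while 7 had an unadjusted p under 0.05, as had 16.8% of all genes, and DESeq2 called 1, Ctsc.

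Lipa, the acid lipase that frees cholesterol and fatty acids from lipoproteins, had 48.1, 47.5, 44.2 and 49.7 CPM at 3 months, 37.3, 41.8, 36.9, 36.1 and 39.0 CPM at 6 months, and 29.4 and 31.6 CPM at 10 months. The 3 ages did not overlap. The log2 change from 3 months was -0.32 ± 0.08 at 6 months (adjusted p = 0.0178) and -0.64 ± 0.11 at 10 months (adjusted p = 0.0011). Leaving out each library in turn kept the call at 10 months; that at 6 months was lost on removal of replicates 1 or 4 of 3 months or 3 or 4 of 6 months (-0.30 to -0.27).

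Ids, the iduronate sulfatase missing in Hunter syndrome, had 257, 219, 253 and 252 CPM at 3 months, 147, 214, 205, 193 and 261 CPM at 6 months, and 155 and 170.5 CPM at 10 months. The 10 month libraries lay below all 3 month libraries, and those of 6 months spread across both. At 10 months Ids was lower than at 3 months by -0.59 ± 0.16 (edgeR, adjusted p = 0.016), which was lost without either 10 month library (-0.66 to -0.52).

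Scarb2 had 584, 479, 601 and 609 CPM at 3 months, 473, 478, 444, 502 and 525.8 CPM at 6 months, and 413 and 453 CPM at 10 months. Its change at 10 months was -0.39 ± 0.13 (adjusted p = 0.0368), lost without 3 month replicates 1 or 3 or either 10 month library (-0.46 to -0.33). Idua was the gene that was higher, with 80.9 and 75.5 CPM at 10 months, against 62.6, 72.5, 49.9 and 51.6 CPM at 3 months. The ages did not overlap, and the change of 0.41 ± 0.13 (adjusted p = 0.0341) was lost without 3 month replicates 3 or 4 or either 10 month library (0.33 to 0.46). The total was 3 without 3 month replicate 3 and 2 without either 10 month library, in which case the lone library is assumed to vary like the other ages.

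Markers of other cells moved with age in the same libraries. Of 10 oligodendrocyte markers 5 were lower and none higher at 6 months and again at 10 months than at 3 months, with medians of -0.54 and -0.58. Their sum was 23840 to 37676 CPM at 3 months, 16278 to 24782 CPM at 6 months and 16775 to 25899 CPM at 10 months. Of 8 microglial markers tested, 2 were higher at 6 months and 3 at 10 months, and their sum was 45.4 to 52.2, 55.0 to 71.9 and 58.6 to 65.9 CPM at 3, 6 and 10 months. Ctsc was at 201 to 279 CPM in sorted microglia, a level from another kit that was not tested against these libraries. All 8 endothelial markers had negative changes at both ages, 2 passing the test each time, with medians of -0.74 and -0.79. Precursor markers were lower for 3 of 8 at 6 months, and at 10 months 1 was higher and 1 lower. Of 6 choroid plexus or ependyma markers 2 were higher and 1 lower at 6 months, and 2 higher and 3 lower at 10 months. The part of these markers in the changes was not tested.

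**Figure D2:**
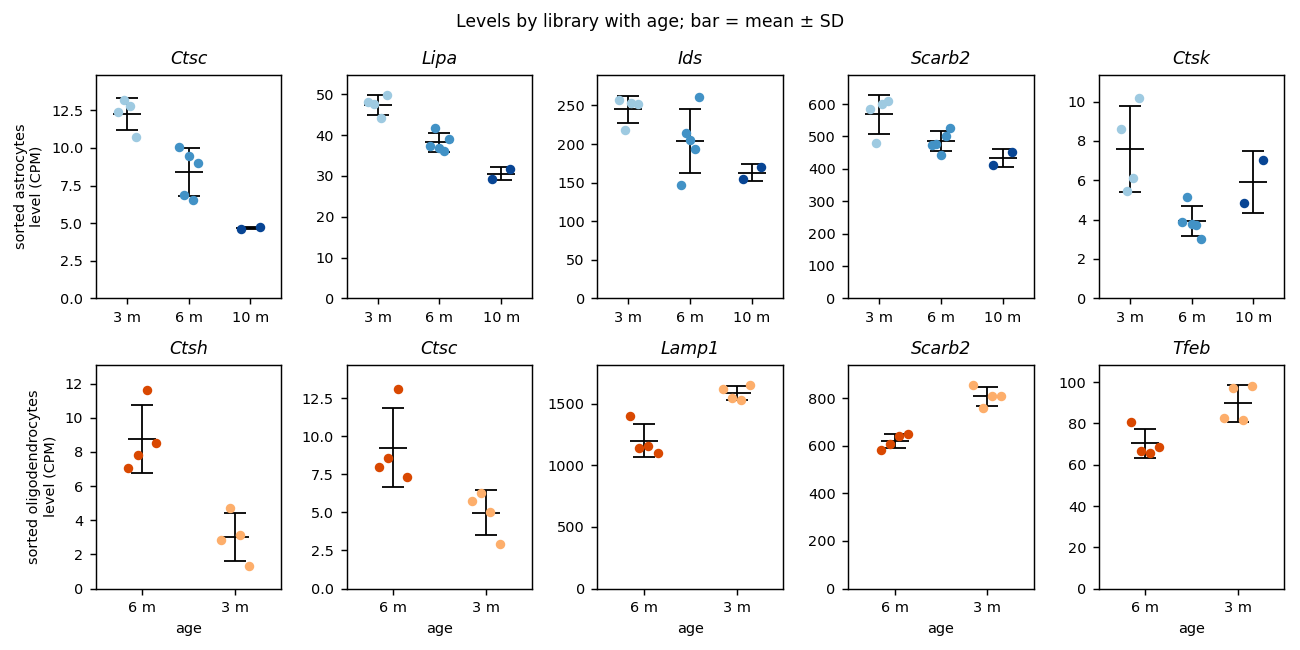
Level in CPM (vertical axes, from 0) of named genes in each library of sorted astrocytes at 3, 6 and 10 months (upper row) and sorted oligodendrocytes at 6 and 3 months (lower row); points are libraries, bars the mean ± SD. In astrocytes Ctsc and Lipa are lowest in the 2 libraries of 10 months, and in oligodendrocytes Ctsh and Ctsc are higher, and Lamp1, Scarb2 and Tfeb lower, at 6 months.

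In oligodendrocytes the scarce cathepsins Ctsh and Ctsc were higher at 6 months than at 3 months, and Lamp1, Scarb2, Npc2, Ctsk and Tfeb were lower. Of the 31 genes 7 passed the test, 2 higher and 5 lower (22.6%, against 24.4% of all 14050 genes, 14.9% higher and 9.46% lower), a share near the background. The median log2 change was -0.09 over the 31 genes and 0.02 over all genes. Without replicate 1 of 6 months the count was 15, 3 higher and 12 lower, with 34.2% of all genes called. Without 3 month replicates 3 or 4 it was 4. It was 12, 2 higher and 10 lower, by DESeq2, which called 27.9% of all genes, and also without the filter on low counts, where 11% of all listed genes passed.

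Scarb2 had 581, 609, 639 and 651 CPM at 6 months, against 857, 759, 808 and 808 CPM at 3 months. The ages did not overlap and the change was -0.38 ± 0.08 (edgeR, adjusted p = 0.00648). Lamp1 had 1405, 1144, 1161 and 1099.7 CPM at 6 months, against 1623, 1549.7, 1529 and 1654 CPM at 3 months. All 6 month libraries were below all 3 month libraries, replicate 1 least so, and the change was -0.40 ± 0.10 (adjusted p = 0.0126), or -0.49 without that replicate. Both calls were kept whichever library was left out.

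Tfeb had 80.9, 66.5, 65.5 and 68.6 CPM at 6 months, against 82.5, 97.0, 81.7 and 97.9 CPM at 3 months. The ages did not overlap, though replicate 1 of 6 months lay just under the lowest 3 month library. The change was -0.35 ± 0.10 (adjusted p = 0.0248), or -0.43 without that replicate, and the call was lost without 3 month replicates 2 (-0.32) or 4 (-0.31). Npc2 was lower by -0.28 ± 0.08, a call lost without any of the 4 libraries of 3 months or 6 month replicate 4 (-0.30 to -0.25). Ctsk was lower by -0.70 ± 0.18, a call lost without 3 month replicate 3 (-0.67).

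Ctsh had 7.04, 7.81, 11.6 and 8.52 CPM at 6 months, against 2.85, 4.72, 3.12 and 1.31 CPM at 3 months. The ages did not overlap, and the change of 1.52 ± 0.31 (edgeR, adjusted p = 0.00702) was kept whichever library was left out. Ctsc had 8.01, 8.60, 13.1 and 7.32 CPM at 6 months, against 5.77, 6.26, 5.01 and 2.94 CPM at 3 months. These did not overlap either, and the change was 0.88 ± 0.25 (adjusted p = 0.0279), lost on removal of replicates 1, 3 or 4 of 3 months or 2 or 3 of 6 months (0.64 to 0.95).

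Markers of blood vessel cells rose in the same libraries. All 8 endothelial markers were higher at 6 months, and their sum was 219, 408, 609 and 480.0 CPM in 6 month replicates 1 to 4, against 59.8, 78.0, 61.7 and 75.1 CPM at 3 months. Ctsh and Ctsc were also higher at 6 months, and their relation to this sum over 4 libraries per age was not tested. Of 5 tested markers of pericytes, smooth muscle and fibroblasts 4 were also higher, while of 10 microglial markers none was higher and 1 lower, their sum being 62.8 to 72.0 CPM at 6 months and 51.3 to 94.4 CPM at 3 months. Of 10 oligodendrocyte markers 7 were lower and 2 higher, with a median of -0.37, the direction of Lamp1, Scarb2, Tfeb, Npc2 and Ctsk, although their summed level was 107201 to 168941 CPM at 6 months and 81636 to 111209 CPM at 3 months. Of 7 neuron markers 3 were higher, and the choroid plexus and ependyma sum was 327 to 3830.0 CPM at 6 months and 85.6 to 950.1 CPM at 3 months. The part of these cells in the changes was not tested.

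The genes that passed only without replicate 1 of 6 months were mostly lower at 6 months, namely Smpd1 (-0.40), Sgsh (-0.43), Npc1 (-0.29), Lamp2 (-0.28), Ctsa (-0.26), Atp6ap1 (-0.25) and Ppt1 (-0.24), and Ctso (0.25) was higher. That library had 1981 CPM of Psap, against 829.6 to 987 CPM in its 3 fellows and 956 to 1103 CPM at 3 months. Its sum over the 31 genes was 6762 CPM, the highest of the 8 libraries.

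The 2 cell types were then compared in their age effect itself, as the log2 change from 3 to 6 months in astrocytes minus that in oligodendrocytes. Of the 31 genes 5 differed (16.1%, against 16.4% of all 16363 genes, 6.44% more positive and 9.97% more negative in astrocytes), again near the background. Ctsc differed by -1.33 ± 0.30 (edgeR, adjusted p = 0.00412), being lower with age in astrocytes and higher in oligodendrocytes. Ctsh differed by -1.23 ± 0.32 (adjusted p = 0.013), with a change of 0.19 ± 0.13 in astrocytes and 1.52 ± 0.31 in oligodendrocytes. Both calls were kept whichever of the 17 libraries was left out.

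The other 3 went the opposite way: Sgsh (0.59 ± 0.18), Idua (0.53 ± 0.15) and Smpd1 (0.46 ± 0.13) had a more positive change in astrocytes. Sgsh changed by 0.15 ± 0.12 in astrocytes and -0.35 ± 0.12 in oligodendrocytes, neither past the test alone. Without replicate 1 of the 6 month oligodendrocytes 11 of the 31 genes differed, with 20.9% of all genes called, the additional ones being Ctsf (0.53), Tfeb (0.51), Neu1 (0.50), Gaa (0.39), Lamp1 (0.38) and Ctsa (0.34). The count was 8 without 6 month astrocyte replicate 5, and 3 without astrocyte replicate 4 of 3 months, astrocyte replicates 3 or 4 of 6 months or oligodendrocyte replicate 2 of 6 months. The call of Idua was lost without astrocyte replicate 4 of 3 or 6 months (0.46 to 0.47), that of Smpd1 without astrocyte replicate 3 of 6 months, oligodendrocyte replicate 1 of 3 months or oligodendrocyte replicates 2 or 3 of 6 months (0.40 to 0.43). That of Sgsh was lost without any of 8 libraries, astrocyte replicates 2 and 4 of 3 months and 1, 3 and 4 of 6 months, and oligodendrocyte replicates 2 and 4 of 3 months and 2 of 6 months (0.50 to 0.55). The endothelial markers named above differed as well, all 8 of them with a median of -3.34.

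**Figure D3:**
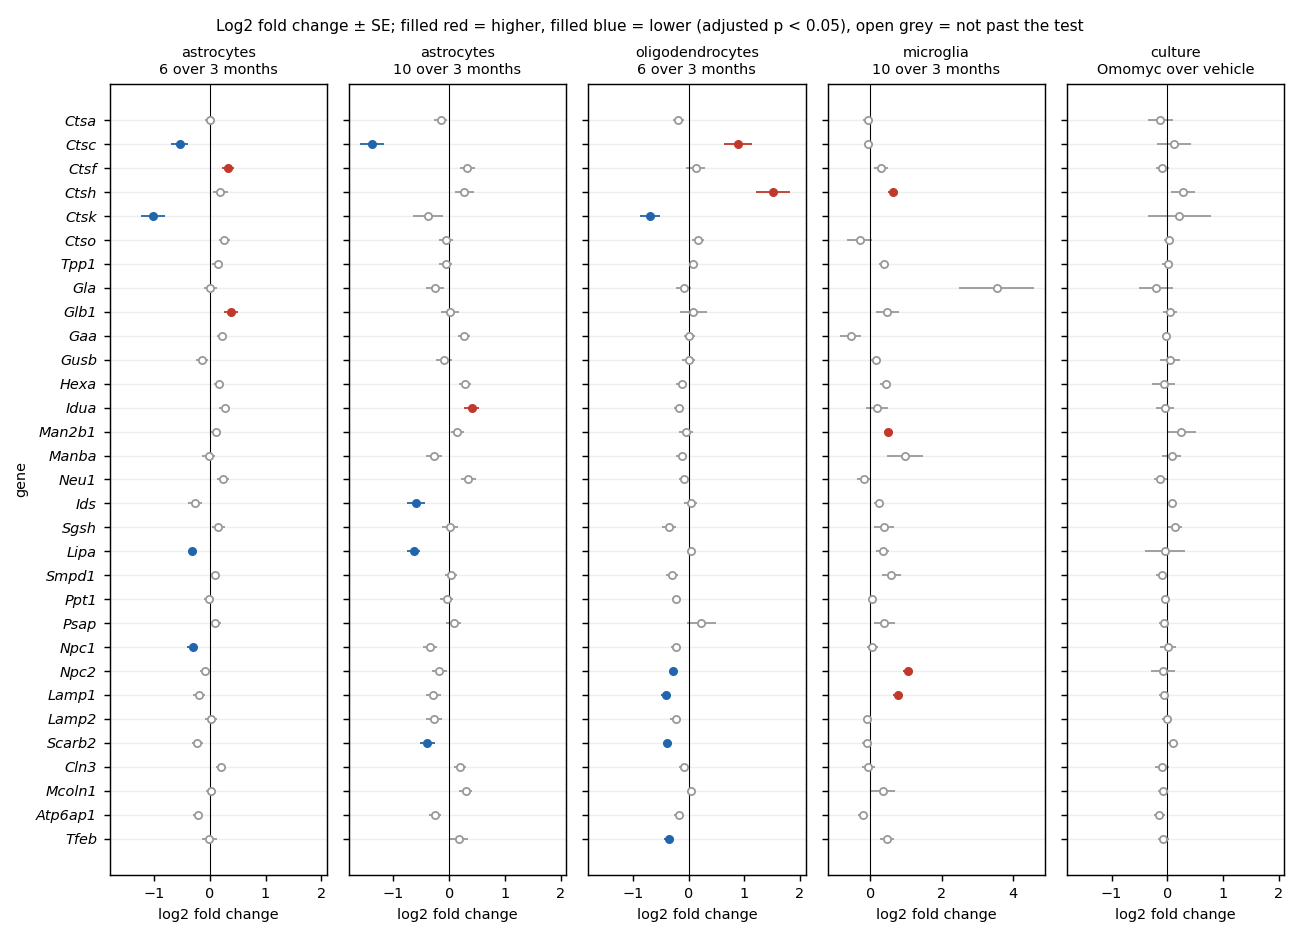
Log2 fold change ± SE (horizontal axes) of each of the 31 genes (rows) for astrocytes at 6 and at 10 months over 3 months, oligodendrocytes at 6 over 3 months, microglia at 10 over 3 months and cultured astrocytes with Omomyc over vehicle; filled points passed edgeR's test at an adjusted p under 0.05 and open points did not. The 4 filled points in microglia all lie to the right of 0, and the culture panel has no filled point; Ctsk has no point in microglia, and the microglia panel has a wider axis to hold Gla.

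In microglia Npc2, Lamp1, Ctsh and Man2b1 were higher at 10 months than at 3 months, and none was lower. These 4 of 30 genes tested are 13.3%, against 3.21% of all 12320 genes, of which 1.94% were higher and 1.27% lower. The median log2 change was 0.33 over the 30 genes and 0.005 over all genes, and 21 of the 30 changes were positive. By role, 2 of 6 membrane genes and 6 of 6 lipid genes had positive changes, with medians of -0.07 and 0.37. The summed level of the list was 6023 to 7418 CPM at 10 months and 4976 to 5511 CPM at 3 months, with no overlap. This sum gives most weight to abundant genes, among them the called Npc2 and Lamp1, so it does not show a rise of the other genes. Single genes without overlap were 11 of the 30.

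Npc2, the soluble carrier that hands cholesterol to Npc1, had 1584, 1112, 1393 and 1594 CPM at 10 months, against 808, 626 and 629 CPM at 3 months. The ages were well apart, and the change was 1.05 ± 0.14 (edgeR, adjusted p = 0.00221). Npc1, its partner in the membrane, had a change of 0.05 ± 0.16 (adjusted p = 0.91). Lamp1 had 987, 825, 947 and 1238 CPM at 10 months, against 559, 636 and 559 CPM at 3 months, again without overlap. Its change was 0.77 ± 0.14 (adjusted p = 0.00896), while Lamp2, the membrane protein of chaperone-mediated autophagy, was at -0.09 ± 0.11. The calls of Npc2 and Lamp1 were kept whichever of the 7 libraries was left out.

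Ctsh had 325, 247, 283 and 284.6 CPM at 10 months, against 219.7, 163 and 171 CPM at 3 months. The ages did not overlap and the change was 0.63 ± 0.14 (adjusted p = 0.0235). Man2b1, which trims mannose from N-glycans, had 272, 237, 282 and 269 CPM at 10 months, against 207, 182 and 173 CPM at 3 months. Its change was 0.50 ± 0.12 (adjusted p = 0.0366). Both calls were lost without 10 month replicates 1, 3 or 4 or 3 month replicate 2, and without 3 month replicate 3 as well (0.55 to 0.63 for Ctsh, 0.45 to 0.50 for Man2b1), leaving 2 calls without each of the first 4 and 3 without the last, of which 2, Npc2 and Lamp1, were shared with the full set.

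Gla, the alpha-galactosidase lost in Fabry disease, had 30, 25, 32 and 30 counts at 10 months, against 0, 0 and 6 counts at 3 months. Gla passed the filter on low counts only through its 10 month libraries, so its separation of the ages is not read as a result. It did not pass edgeR's test (adjusted p = 0.0817). DESeq2 called it, under the same filter, and the fitted change of 3.55 ± 1.06 depends on the prior count at such depths. Ctsc, which is abundant in microglia, was at 231, 206, 219 and 252 CPM at 10 months and 279, 228 and 201 CPM at 3 months, overlapping widely (-0.06 ± 0.13). Tfeb had a change of 0.47 ± 0.20 (adjusted p = 0.234), and Atp6ap1 one of -0.21 ± 0.12. Microglial markers were themselves higher at 10 months: 3 of 12 passed, none was lower, and their sum was 33829 to 45333 CPM at 10 months against 26214 to 31907 CPM at 3 months. Astrocyte markers summed to 309 ± 36.7 CPM at 10 months (SD, n = 4) and 219 ± 19.1 CPM at 3 months (SD, n = 3), without overlap (2 of 8 higher), and endothelial markers to 103 to 121 CPM at 10 months and 69.3 to 75.8 CPM at 3 months (1 of 4 higher). Of 6 precursor markers 1 was higher. The part of cell content in these changes of lysosomal genes was not tested.

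**Figure D4:**
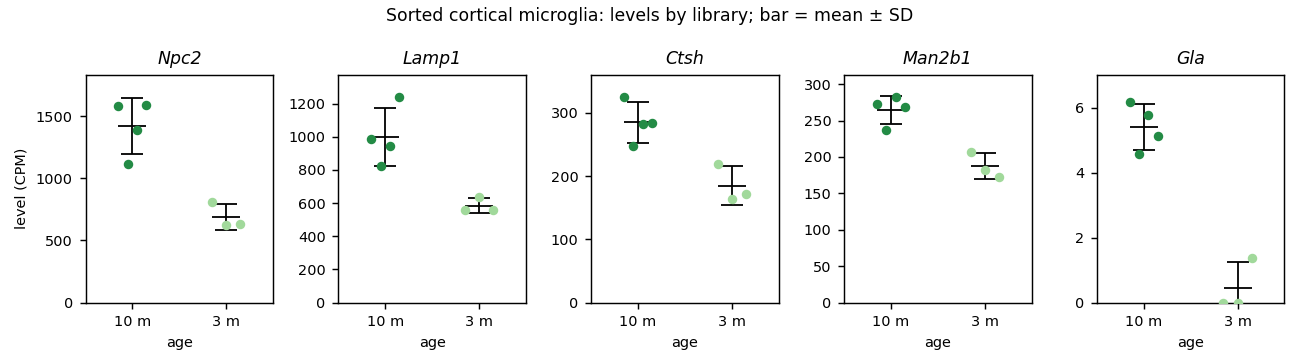
Level in CPM (vertical axes, from 0) of Npc2, Lamp1, Ctsh, Man2b1 and Gla in each microglia library at 10 months (left) and 3 months (right); points are libraries, bars the mean ± SD. In all 5 genes the 4 libraries of 10 months lie above the 3 of 3 months. Gla rests on at most 32 counts per library and passed the filter on low counts only through the 10 month libraries.

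In cultured astrocytes edgeR called 0 of the 31 genes between Omomyc and vehicle (0.0186% of all 16119 genes passed). No gene of the list had an unadjusted p under 0.05, against 6.34% of all genes, and DESeq2 also called 0. The log2 changes lay between -0.20 and 0.29, with a median of -0.04 over the list and -0.002 over all genes, and their standard errors between 0.07 and 0.56. These limits depend on single libraries: the lowest change was -0.56 without Omomyc replicate 3, -0.37 without vehicle replicate 1 and -0.10 without Omomyc replicate 1, and the highest was 0.93 without vehicle replicate 3, 0.50 without Omomyc replicate 2, 0.16 without vehicle replicate 1 and 0.11 without Omomyc replicate 3.

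Libraries with the same replicate number varied together. With the replicate number as a block, 4.07% of all genes passed and again 0 of the 31, the smallest adjusted p being 0.0558 for Man2b1 (0.25) and 0.0693 for Ctsh (0.28). The blocked changes lay between -0.23 and 0.28 and their standard errors between 0.05 and 0.13. Man2b1 had 194, 206 and 328 CPM in Omomyc replicates 1 to 3, against 161, 184 and 265 CPM in vehicle replicates 1 to 3. Omomyc was higher in 3 of 3 numbers, but the treatments overlapped. Ctsh had 64.1, 69.7 and 104 CPM with Omomyc, against 52.9, 63.7 and 77.7 CPM with vehicle, also higher in 3 of 3 numbers.

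Omomyc was higher in all 3 numbers for 8 genes (Ctsc, Ctsh, Ctsk, Gusb, Ids, Man2b1, Scarb2 and Sgsh) and lower for 6 (Atp6ap1, Gla, Lipa, Mcoln1, Neu1 and Smpd1). Of all 16119 genes 23.1% were higher and 21.2% lower in all 3 numbers, so these counts are near the background. Scarb2 was the gene whose treatments did not overlap, with 335, 339 and 380.3 CPM with Omomyc, against 332, 330.0 and 324 CPM with vehicle (0.10 ± 0.08, adjusted p = 0.86). The share of all genes without overlap was not counted, so this lack of overlap is not read as an effect. Of the 9 genes with CACGTG in the promoter, Lamp1, with 4 copies, had 1275, 1294 and 1455 CPM with Omomyc, against 1339, 1455 and 1418 CPM with vehicle, which overlapped (-0.07 ± 0.09). The other 8 had changes between -0.20 (Gla) and 0.13 (Sgsh). Tfeb was at 20.7, 20.5 and 23.5 CPM with Omomyc, against 22.8, 24.0 and 21.2 CPM with vehicle.

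Replicate 3 of both treatments was the highest of its group in 20 of the 31 genes and the lowest in 2, Ctso and Smpd1. The share of all genes with this order was not counted, so these counts do not set the list apart. Lipa had 135, 151 and 273 CPM with Omomyc, against 139, 157 and 279.8 CPM with vehicle, with replicate 3 the highest of each treatment. Ctsc had 170.5, 189 and 309.9 CPM with Omomyc, against 163, 168 and 284 CPM with vehicle. Microglial markers followed the same order, with a sum of 2027, 2388 and 3956 CPM in Omomyc replicates 1 to 3, against 1758, 2109 and 3162 CPM in vehicle replicates 1 to 3, and were thus present in every culture. With replicate 3 of both treatments left out, a choice made after seeing the data, 0 of 31 genes were called and the changes lay between -0.33 and 0.34. Markers of pericytes, smooth muscle and fibroblasts summed to 5032 to 5978 CPM with Omomyc and 5464 to 7248 CPM with vehicle. The part of these cells in the levels was not tested.

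**Figure D5:**
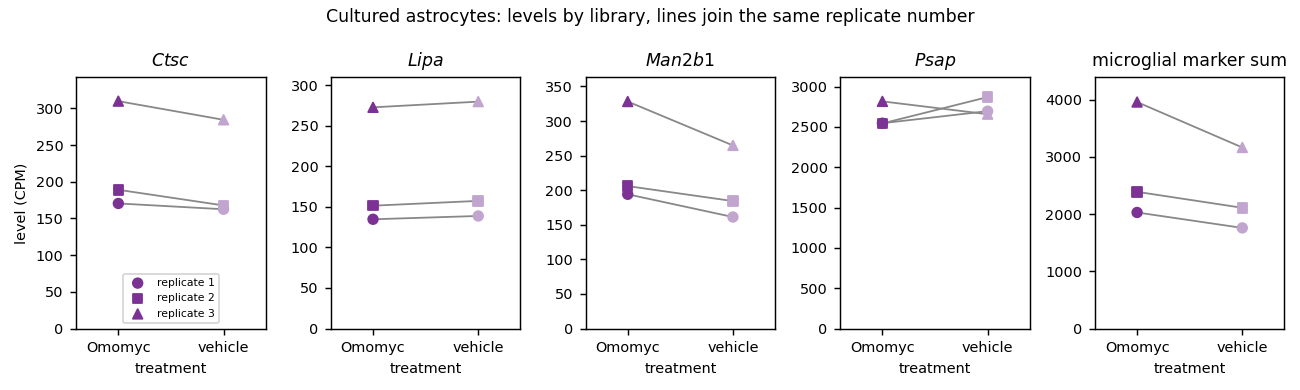
Level in CPM (vertical axes, from 0) of Ctsc, Lipa, Man2b1 and Psap and the summed level of microglial markers in cultured astrocytes with Omomyc (left) and vehicle (right); marker shapes and lines give the replicate number. Replicate 3 is highest with both treatments for Ctsc, Lipa, Man2b1 and the marker sum, which reaches 3956 CPM with Omomyc.

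Further genes of the pathway were counted by list. The list called other hydrolases also holds genes whose products are not lysosomal hydrolases, such as Cln6 and Sumf1. In microglia 4 of 29 other lysosomal hydrolases were higher at 10 months and none lower (13.8%, against 3.21% of all genes), with a median of 0.29: the cathepsins Ctsb (0.83), Ctss (0.82) and Ctsd (0.72), the major lysosomal endopeptidases, and the dipeptidyl peptidase Dpp7 (1.04). Of 20 other lysosomal membrane proteins 1 was higher, the tetraspanin Cd63 (0.66), and the 18 V-ATPase subunits had a median of -0.01. Of 22 autophagy genes 1, Gabarap (0.76), was higher.

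In astrocytes at 6 months 4 of 29 genes listed as other hydrolases were higher and 1 lower than at 3 months (17.2%, near the 14.6% of all genes). Among those higher were Naglu (0.55) and Cln6 (0.61), which is not a hydrolase. At 10 months 3 were higher, including Ctss (1.28), a cathepsin of microglia, and 2 were lower. Delivery of hydrolases from the Golgi was covered by 9 genes. Gnptab, which makes the mannose-6-phosphate tag, fell by 0.58 on the log2 scale at 6 months and by 0.76 at 10 months, and the sorting receptor Sort1 by 0.50 and 0.49. These 2 were the genes of the list that were lower at each age, and 1, Gga1, was higher at 10 months. Of 18 V-ATPase subunits 1 was lower at 6 months and 4 at 10 months, with Atp6v1a at -0.34 and -0.58, and 1 was higher at 10 months. At 6 months 22.2% of delivery genes and 5.56% of V-ATPase subunits passed, against 14.6% of all genes. At 10 months 17.2% of the other hydrolases, 33.3% of delivery genes and 27.8% of V-ATPase subunits passed, against 22.7% of all genes.

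In oligodendrocytes at 6 months 3 of 29 other hydrolases were lower and none higher (10.3%, against 24.4% of all genes either way and 9.46% lower), led by legumain, Lgmn (-0.52), and 3 of 21 other membrane proteins were lower. Of 18 V-ATPase subunits 3 were lower, among them Atp6v1a (-0.42), and 1, Atp6v1g2 (1.06), was higher. Of 9 delivery genes 2 were lower, among them Sort1 (-0.40). Of 19 genes of the TFEB family and of mTORC1 at the lysosome 2 were lower, Mitf (-0.35) and Rraga (-0.42), and Rragd (1.02) was higher. The shares that passed were 14.3% of membrane proteins, 22.2% each of V-ATPase subunits and delivery genes, and 15.8% of this last list. All were below the 24.4% of all genes. In culture the median changes of the 6 lists with Omomyc lay between -0.13 for V-ATPase subunits and -0.01 for autophagy.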

How the data were processed

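RNA was sequenced from sorted glia and cultured astrocytes of TDP-43_Q331K mice. Per the labels' protocols, astrocyte and oligodendrocyte libraries were poly(A) CORALL libraries with unique molecular identifiers, microglia libraries QuantSeq 3′ libraries, whose counts follow transcript ends, and culture libraries Watchmaker mRNA libraries with Twist UMI adapters. The submitters' processing notes name featureCounts 2.0.1, UMI-tools 1.0.1, STAR 2.7.7a, DESeq2 and fastp, without saying which genome build each table used. The deposited tables hold raw counts per gene for all 4 sets, used for every test, and TPM by the authors for astrocytes and oligodendrocytes, used only to rank levels. For culture, TPM was computed here from the counts and GENCODE vM21 gene lengths.

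Tests used edgeR 4.0.16 (quasi-likelihood, TMM scaling, filterByExpr with a minimum count of 10, R 4.3.3) on all genes of a table, with Benjamini-Hochberg adjusted p under 0.05 as a call. Sorted astrocytes of all 3 ages shared 1 fit; astrocytes and oligodendrocytes at 3 and 6 months shared 1 joint fit with the interaction of cell type and age. CPM values were computed after TMM scaling, within a table or, for astrocytes against oligodendrocytes, over the libraries of the joint fit. The code was tested on simulated data. Alternatives were RLE scaling, no filter, the replicate number as a block, DESeq2 1.42.0, fits on the compared groups alone and each library left out; leaving out culture replicate 3 of both treatments was added after seeing the data. In culture, same-numbered libraries deviated together (correlations of 0.63, 0.43 and 0.68 for numbers 1, 2 and 3, a pairing read from the data and not stated in the labels), so blocked values are given there. No 2 replicates agreed within sampling noise.

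The 31 members and the lists of related and marker genes were chosen with earlier results of these data known. All members are named; from other lists up to 4 called genes per comparison with the smallest p are named. Promoters are shown for a few members called in at least 2 comparisons, and the short windows around CACGTG were added after the promoters had been searched. Because the microglia, sorted and culture tables come from different kits, levels were not tested across them.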

Additional observations from a re-analysis of the deposited data

Results flagged for a closer look

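Each gene was tested in each group of 4 or 5 libraries for a library far from its fellows, which made 155 tests. Of these 14 held one, where chance alone gives about 1 in 20. Genes measured in the same library are not independent, so this rate is only a rough guide to the 14 flags. Replicate 1 of the 6 month oligodendrocytes accounted for 5 of them: it had about 1980 CPM of Psap (830 to 987 in the other libraries), 75.7 CPM of Ctsf (43.5 to 44.3), 107 CPM of Smpd1 (79.8 to 82.3) and 34.8 CPM of Neu1 (27.1 to 28.2), and a low 30.6 CPM of Ctso (39.1 to 40.2). In the same group Hexa stood at 50.8 CPM in replicate 4 and Cln3 at 44.2 CPM in replicate 3. In 3 month oligodendrocytes Idua was low in replicate 3 (19.7 CPM) and Psap high in replicate 4 (about 1100 CPM). In 3 month astrocytes Tpp1 was low in replicate 4 (256 CPM) and Ids in replicate 2 (219 CPM). In 6 month astrocytes Ctso was high in replicate 5 (168 CPM) and Manba low in replicate 1 (21.0 CPM). Tfeb was high in replicate 1 of the 10 month microglia (72.9 CPM, against 57.2 to 57.8).

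The change from 3 to 6 months differed between astrocytes and oligodendrocytes by the interaction term for 5 genes: Ctsc (-1.33), Ctsh (-1.23), Sgsh (0.59), Idua (0.53) and Smpd1 (0.46), each as astrocytes minus oligodendrocytes.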

How the results depend on the processing

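No called change of a gene turned direction under the alternatives run; changes that were not called, such as those with Omomyc, were not held to this. The count of genes called for astrocytes at 10 against 3 months was 5 with all libraries, 3 with the replicate block, 3 with only those ages fitted and 9 by DESeq2. At 10 against 6 months it was 0, and 1 without the filter or by DESeq2. In oligodendrocytes it was 7, and 12 without the filter or by DESeq2. Other settings moved no count by over 1.5 times. With each library left out in turn, counts ranged from 1 to 7 (astrocytes, 6 against 3 months), 2 to 6 (10 against 3), 4 to 15 (oligodendrocytes), 2 to 4 (microglia), 26 to 29 (astrocytes against oligodendrocytes) and 3 to 11 (difference in age effect), and stayed at 0 for astrocytes at 10 against 6 months and for Omomyc.

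In the sorted cells same-numbered libraries shared only a number (deviations correlated between -0.17 and 0.18). There the replicate block gave 5 calls for astrocytes at 6 against 3 months and 7 for oligodendrocytes. In culture it gave 0. Groups did not overlap for 6 of the 31 genes in astrocytes at 6 against 3 months and for 9 in oligodendrocytes. The share of all genes without overlap was not counted in any comparison. Lack of overlap therefore describes the libraries and is not read as an effect. Depth limits Gla and Ctsk in microglia, Ctsk, Ctsh and Ctsc in the sorted cells, and 2 libraries limit every value at 10 months in astrocytes.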
